A study of Mus musculus with 9 samples.

Results

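Lung cells sorted through an eosinophil gate were compared with lung cells sorted through a neutrophil gate, gene by gene, on Affymetrix mouse arrays. The members were the 2 arrays titled Eosinophils and the 2 titled Neutrophils, which are 4 of the 9 arrays of the series, and every one of the 18193 genes measured was compared. All cells came from female 4get mice of 6 to 8 weeks on a BALB/c background, in which a green fluorescent protein (GFP) reports Il4 expression. All mice, in both groups, had been given recombinant interleukin 25 (IL-25) through the trachea once a day (4 days, 0.5 µg in a volume of 50 µL), and no untreated group entered the comparison. After digestion of the lungs and magnetic enrichment for CD11b, each replicate was sorted to 400000 cells from a pool of 4 donors, and 50 ng of its RNA was amplified. Both gates took GFP-, F4/80-, MHC class II-low, CD11b+ cells. The eosinophil gate added the IL-5 receptor alpha chain (IL-5rα+) and high Gr-1, and the neutrophil gate was IL-5rα- and Gr-1+. T2M arrays (3; GFP+ IL-5rα- F4/80+ MHCIIlo Gr-1mid) and Macrophages arrays (2; GFP- IL-5rα- F4/80+ MHCII+ Gr-1-) served only as a frame and for the shared estimate of the spread. Since each replicate was a pool, the errors below rest on how much such pools differ, in 1 estimate shared by all 4 labels. The Macrophages pair, in which far fewer genes lay apart than in the compared pairs, enters that estimate. The errors are therefore not the spread of the eosinophil-labelled and neutrophil-labelled pools alone.

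Eosinophils and neutrophils are short-lived granulocytes made in the bone marrow. Eosinophils are known for the eotaxin receptor CCR3, the lectin Siglec-F and granule proteins such as major basic protein and eosinophil peroxidase, and they gather in the lung during type 2 inflammation, which IL-25 sets off. Neutrophils are known for the receptors for G-CSF and for CXC chemokines, for granules made in successive stages (myeloperoxidase and elastase first, then lactoferrin, lipocalin 2 and gelatinase), and for fast release of IL-1 family cytokines. Monocytes and macrophages carry CCR2 or CX3CR1, complement C1q and MHC class II.

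The transcript levels went against the labels. Of 22 measured neutrophil markers, 14 were higher in the cells labelled eosinophils and none was lower, beside 3.55% and 4.33% of all genes, whereas none of 15 measured eosinophil markers was called in either direction. Over the fits that left out 1 of the 9 arrays in turn, 7 to 18 neutrophil markers were higher and none lower, and 0 to 1 eosinophil markers were higher and 0 to 2 lower. "Called" means a limma p under 0.05 after Benjamini-Hochberg adjustment over the 18193 genes, and a difference is the mean log2 level of the eosinophil-labelled arrays minus that of the neutrophil-labelled arrays, so that 1 unit is 2-fold. Where a call of a named gene ended in a fit without 1 array, that array is given. The other calls of named genes held without each of the 9 arrays in turn. Where a gene described as not called was called in such a fit, that array is given too. These remarks cover only the fits without 1 array. With the 4 compared arrays alone in the fit, 41 of the 85 calls of named genes ended, many of them given below without a remark. Values for each label are given in the order of replicates 1 and 2, on the log2 scale of the deposited table. The groups are called by their labels below and no other cell type name is given to them. In sorted bulk RNA, fewer cells of a type and less RNA per cell cannot be told apart.

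The arrays were uneven. Across genes, the eosinophil-labelled arrays correlated at 0.955 with each other and the neutrophil-labelled arrays at 0.922, while neutrophil-labelled array 2 correlated at 0.952 with each of the Macrophages arrays; these are correlations over genes, which are not independent. Between the replicates of a label, 12.6% of genes lay over 2-fold apart for the eosinophil label, 22.6% for the neutrophil label and 0.176% for the Macrophages label. Eosinophil-labelled array 1 read the 3′ actin control 0.54 above the 5′ one, against -0.03 on array 2 and -0.10 and 0.03 on the neutrophil-labelled arrays. T2M array 1 read 0.61. For the Gapdh control the values were 2.41 and 1.09 on the eosinophil-labelled arrays and 2.2 and 1.45 on the neutrophil-labelled arrays. They were 2.35 to 3.43 on the T2M arrays and 1.02 and 1.2 on the Macrophages arrays. By Gapdh, neutrophil-labelled array 1 was thus close to eosinophil-labelled array 1. The part of these 3′ excesses in the results was not tested beyond the fits that leave an array out. Neutrophil-labelled array 1 alone was high for NK cell genes, whose mean level over 12 genes was 7.33 there, 5.37 on array 2 and 5.69 and 5.94 on the eosinophil-labelled arrays. Klrc1 was at 8.40 and 4.11 on the neutrophil-labelled arrays and at 4.18 and 4.29 on the eosinophil-labelled arrays. It was not called; it was called without neutrophil-labelled array 2 (-4.17, adjusted p = 0.00368).

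In the whole comparison, 1433 genes (7.88%) were called, 645 (3.55%) higher and 788 (4.33%) lower in the eosinophil-labelled cells. All 1433 were without overlap, meaning that every array of 1 label lay above every array of the other. With so few arrays in each label, a difference large enough to be called nearly always separates them, so this is no separate support. Lack of overlap alone held for 16.7% of genes upward and 23.7% downward. The median difference over all genes was -0.07. Shifting the arrays to a common median moved it by 0.15 and moved the share of calls that were higher from 45% to 56.6%, so the balance of directions depended on the scaling. With the 4 arrays compared alone in the fit, 215 genes were called. The count and the share of calls that were higher also changed when an eosinophil-labelled or neutrophil-labelled array was left out, which leaves that label with 1 array. Among these fits the share fell furthest without neutrophil-labelled array 1. The balance of directions therefore depended on single arrays as well as on the scaling. Without Macrophages array 1 or 2 the count of calls fell as far as it did without eosinophil-labelled array 1. A large part of the calls thus depended on the close Macrophages pair, which is not compared here. The 2 fits without a Macrophages array gave this comparison the same values, because a label left with 1 array adds nothing to the estimate of the spread. They are therefore 1 check and not 2.

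**Figure D1:**
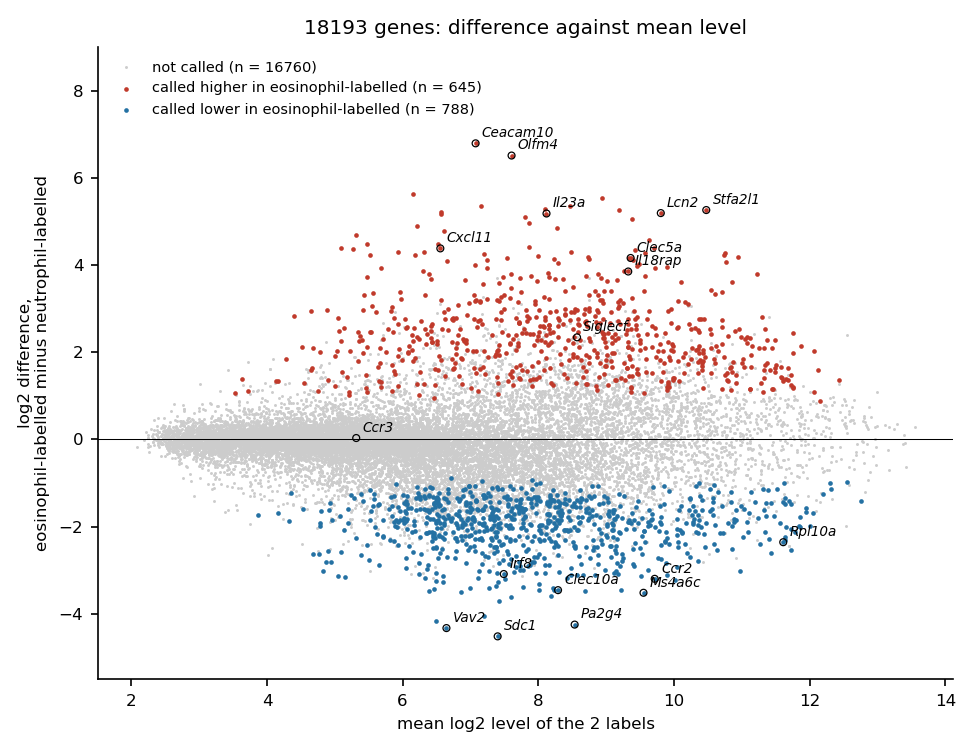
Each point is 1 of 18193 genes, with the mean log2 level of the eosinophil-labelled and neutrophil-labelled arrays on the x axis and the log2 difference on the y axis; red points are the 645 genes called higher, blue points the 788 called lower and grey points the others. The upward calls reach 6.79 at Ceacam10 and the downward calls reach -4.52 at Sdc1, while Ccr3 lies at 0.03.

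The upward differences reached further than the downward ones, and Ceacam10 and Olfm4 headed them. Ceacam10, a member of the carcinoembryonic antigen family, was at 10.79 and 10.16 on the eosinophil-labelled arrays and at 3.52 and 3.83 on the neutrophil-labelled arrays. Both eosinophil-labelled arrays were far above every other array of the series, and the difference of 6.79 (SE 0.52, adjusted p = 0.00075) was a 111-fold one. Its 3 probe sets ran from 1.43 to 6.79, so that size depended on the probe set. Olfm4, an olfactomedin of neutrophil specific granules, was at 10.82 and 10.90 against 5.19 and 3.52, and its difference was 6.51 (SE 0.64, adjusted p = 0.00181). The T2M arrays lay between, at 8.41, 6.76 and 7.12.

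Prps1l1, Klra17, Cd69, Steap4 and Tnfrsf23 were also among the 15 largest upward differences. Prps1l1, related to the enzymes that make phosphoribosyl pyrophosphate, was at 8.58 and 9.34 against 3.44 and 3.22. Klra17, of the Ly49 lectin-like receptors, was at 11.60 and 10.69 against 6.28 and 5.29. Cd69, a lectin induced early in leukocyte activation, was at 9.97 and 9.69 against 3.94 and 5.02. In each of these the groups did not overlap, with differences of 5.63, 5.36 and 5.35 and adjusted p of 0.00075, 0.00114 and 0.000775. The metalloreductase Steap4 differed by 5.26 (SE 0.40, adjusted p = 0.00075). The decoy TRAIL receptor Tnfrsf23 differed by 5.10 (SE 0.67, adjusted p = 0.0048), with levels of 10.19 and 10.53 against 4.10 and 6.41, and the spread lay in the neutrophil-labelled pair.

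Downward, Sdc1, Vav2 and Pa2g4 headed the calls. Sdc1, the heparan sulphate proteoglycan syndecan-1, was at 4.77 and 5.51 on the eosinophil-labelled arrays and at 9.17 and 10.15 on the neutrophil-labelled arrays. The neutrophil-labelled arrays were also above the Macrophages arrays (5.46 and 5.62) and the T2M arrays (5.95, 6.24 and 7.02), and the difference was -4.52 (SE 0.46, adjusted p = 0.00197). With the probe set of largest variance standing for the gene it was -3.50, adjusted p = 0.067, so that call ended. Vav2, a guanine nucleotide exchange factor, differed by -4.33 (SE 0.30, adjusted p = 0.00075), and here the Macrophages arrays, at 9.26 and 9.41, lay above the neutrophil-labelled ones, at 8.88 and 8.74. Pa2g4, a growth-regulated RNA-binding protein, was at 6.28 and 6.54 against 11.02 and 10.31, and Atic, of purine synthesis, was at 4.77 and 6.34 against 9.51 and 9.03. Lman1, the cargo receptor between endoplasmic reticulum and Golgi, was at 6.15 and 6.60 against 9.98 and 9.97. For these the differences were -4.25, -3.71 and -3.60, with adjusted p of 0.00131, 0.00615 and 0.00197. Ehmt2, a histone H3 lysine 9 methyltransferase, differed by -3.62 (SE 0.56, adjusted p = 0.0085). Over the probe sets of each gene, differences ran from -4.33 to -0.25 for Vav2 and from -4.25 to -0.91 for Pa2g4. They ran from -3.60 to -0.72 for Lman1, from -3.62 to -0.78 for Ehmt2 and from -3.71 to -3.06 for Atic. The sign was the same throughout, but apart from Atic the size depended on the probe set.

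**Figure D2:**
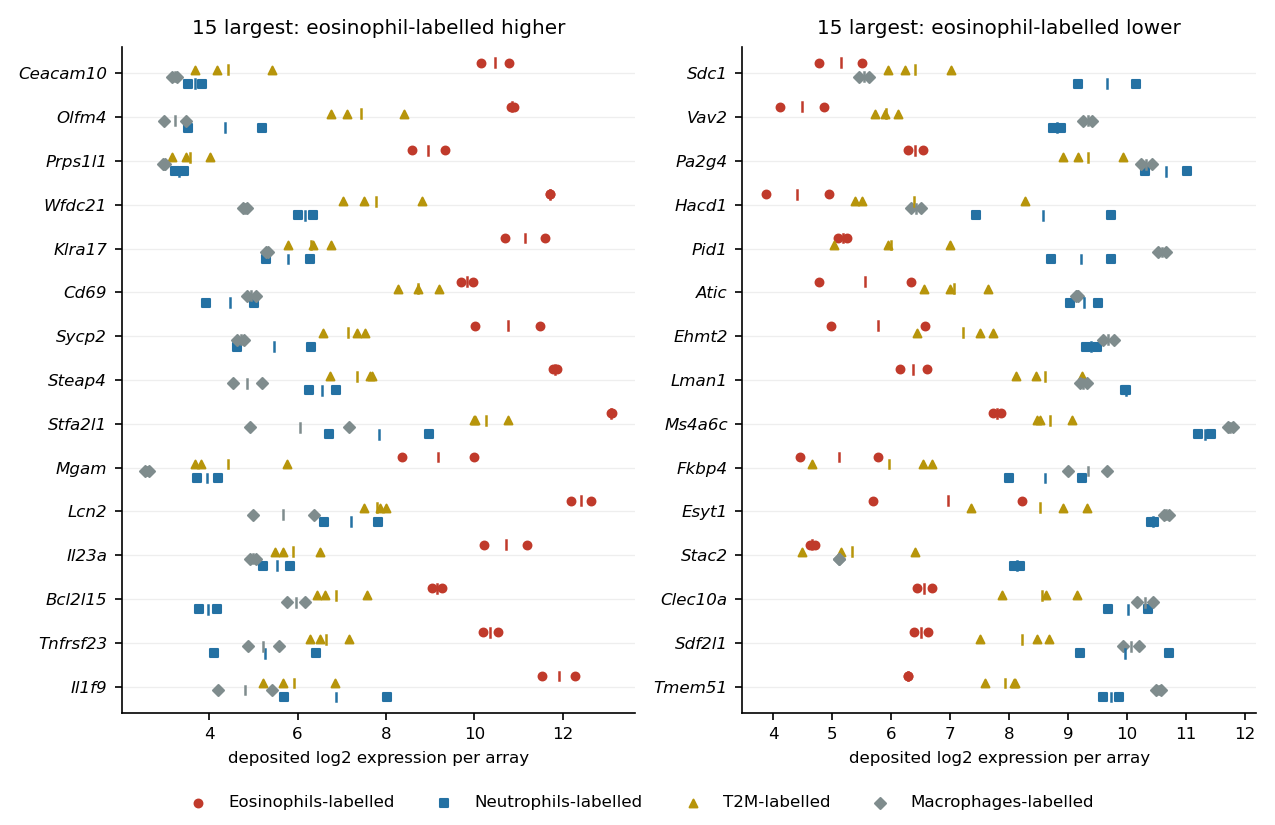
Each row is a gene, with its deposited log2 level on each array on the x axis, coloured and shaped by label, and short bars for the label means; the left panel holds the 15 largest upward and the right panel the 15 largest downward differences. At left the eosinophil-labelled arrays stand above all others; at right the Macrophages arrays often sit with or above the neutrophil-labelled ones, as for Vav2 and Ms4a6c.

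The label with the highest mean differed between the directions. Of the 645 genes called higher, 597 (92.6%) had their highest mean in the eosinophil-labelled cells. Of the 788 called lower, 375 (47.6%) had it in the neutrophil-labelled cells and 392 (49.7%) in the Macrophages label. These shares are descriptions, since the calls fix part of the order.

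Neutrophil surface, enzyme and protease-inhibitor genes were higher in the eosinophil-labelled cells. The count was 14 of 22 upward and none downward, beside 3.55% and 4.33% of all genes, and the list's median difference was 3.57 beside -0.07. Wfdc21, a whey acidic protein domain gene, was at 11.70 and 11.71 against 6.35 and 6.0. The eosinophil-labelled arrays were the highest of the 9, and the difference was 5.54 (SE 0.51, adjusted p = 0.00134). Stfa2l1, a stefin that inhibits cysteine proteases, was at 13.09 and 13.11 against 8.98 and 6.71 (5.26 (SE 0.84, adjusted p = 0.00954)). Mgam, the enzyme maltase-glucoamylase, was at 10.0 and 8.36 against 4.19 and 3.73 (5.22 (SE 0.74, adjusted p = 0.00608)). Mmp9, the gelatinase of tertiary granules, was at 11.10 and 12.31 against 8.13 and 6.73, with a difference of 4.27 (SE 0.58, adjusted p = 0.00517), and Slfn4, of the schlafen family, differed by 4.22 (SE 0.62, adjusted p = 0.00705).

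Several receptors of the list were called too. Il1r2, the decoy receptor for IL-1, was at 12.23 and 12.30 against 9.02 and 8.64 and differed by 3.43 (SE 0.37, adjusted p = 0.00232). Cxcr2, the receptor for CXC chemokines that draw neutrophils, was at 11.57 and 11.64 against 9.71 and 8.55 and differed by 2.47 (SE 0.44, adjusted p = 0.0141); its call ended without eosinophil-labelled array 1 or 2 (2.44 to 2.51, adjusted p from 0.0581 to 0.0674). Fpr2, a formyl peptide receptor, differed by 4.28 (SE 0.77, adjusted p = 0.0145), and its call ended without eosinophil-labelled array 1 or 2 or neutrophil-labelled array 2 (3.50 to 4.45, adjusted p from 0.0568 to 0.0682). Csf3r, the G-CSF receptor, was at 12.0 and 12.78 against 10.49 and 9.47. The arrays did not overlap, but its difference of 2.41 (SE 0.73, adjusted p = 0.0853) was not called; it was called without T2M array 1 or 2 (2.41, adjusted p from 0.0261 to 0.0429).

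The alarmin S100a8 was at 13.64 and 13.86 against 12.84 and 9.88, and its partner S100a9 at 13.60 and 13.45 against 13.58 and 11.30. Neutrophil-labelled array 1 was near or at the eosinophil-labelled level for both, array 2 was lower, and neither was called (adjusted p = 0.226 and 0.693). Over the list as a whole the mean log2 level was 11.63 and 11.91 on the eosinophil-labelled arrays, 9.03 and 7.60 on the neutrophil-labelled arrays, 8.68 to 9.19 on the T2M arrays and 6.01 to 6.84 on the Macrophages arrays. Neutrophil-labelled array 1 was thus within the T2M range and array 2 below it. The count was 12 without neutrophil-labelled array 2, 9 without eosinophil-labelled array 1 and 7 without eosinophil-labelled array 2. It was 4 with eosinophil-labelled array 1 and neutrophil-labelled array 2 both left out, a fit added after seeing the data, and 8 with the 4 arrays alone in the fit.

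**Figure D3:**
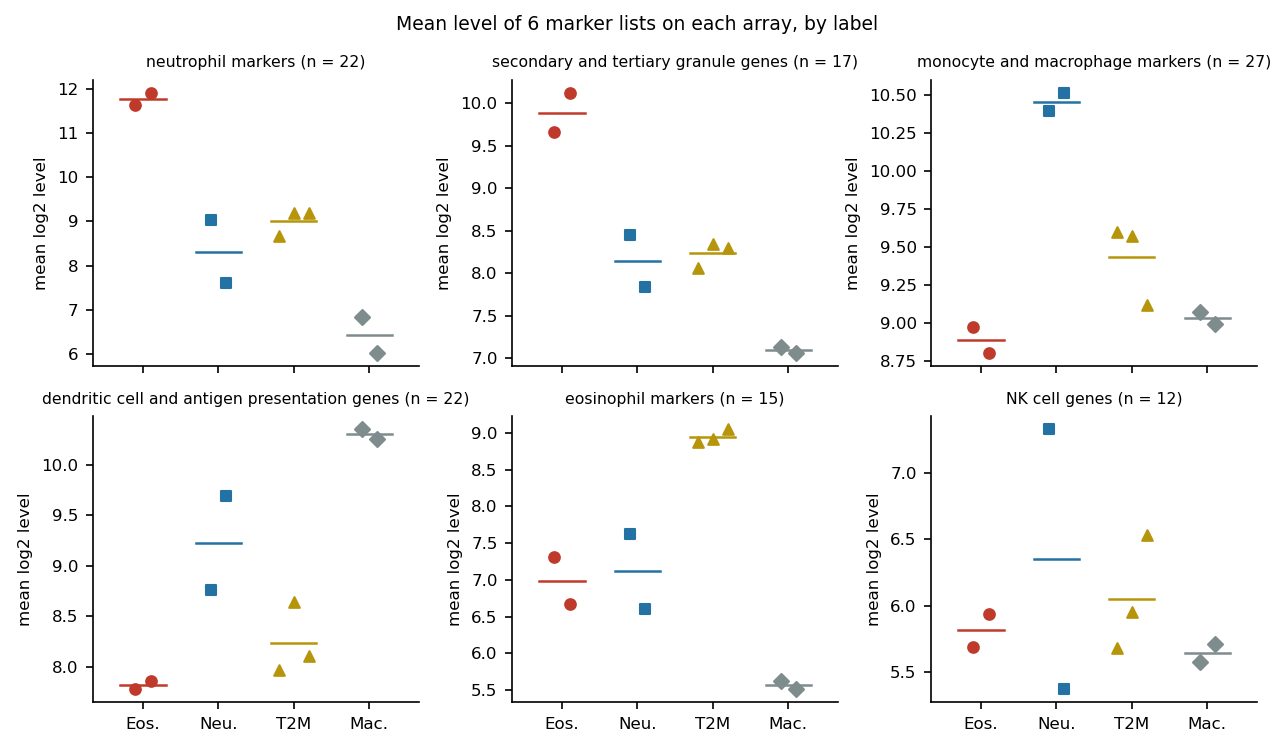
Each panel plots the mean log2 level of 1 marker list (y axis) on each array, grouped by label on the x axis, with bars for label means; Eos. and Neu. stand for the eosinophil and neutrophil labels and Mac. for the Macrophages label. Neutrophil markers and later granule genes are highest on the eosinophil-labelled arrays, eosinophil markers are highest on the T2M arrays, and NK cell genes are highest on neutrophil-labelled array 1.

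Later granule genes were called mostly upward, with only Arg1 and Cybb lower, and early ones, whose median level was low, in neither direction. Of the later list 35.3% was called higher and 11.8% lower, beside 3.55% and 4.33% of all genes. Of 17 measured secondary and tertiary granule genes, 6 were higher and 2 lower, with a median of 0.91; none of 6 primary granule genes was called, in this fit or without each array in turn. The counts of the later granule genes were 4 and 1 without eosinophil-labelled array 1 or 2, and 3 and 0 with the 4 arrays alone; the downward count was also 1 without neutrophil-labelled array 2 or Macrophages array 1 or 2. Lcn2, the iron-siderophore binder lipocalin 2, was at 12.18 and 12.63 against 7.83 and 6.59. The lower eosinophil-labelled array was far above the higher neutrophil-labelled one, and the difference was 5.19 (SE 0.53, adjusted p = 0.00197). Camp, the cathelicidin precursor, was at 8.62 and 10.54 against 6.48 and 5.26 (3.71 (SE 0.62, adjusted p = 0.0111)). Ltf, lactoferrin, was at 9.29 and 9.13 against 6.85 and 4.41 (3.58 (SE 0.70, adjusted p = 0.02)), and its call ended without eosinophil-labelled array 1 or 2 (3.50 to 3.66, adjusted p from 0.0798 to 0.0842). The lower ones were Arg1 and Cybb. Arg1, an arginase that macrophages also make under IL-4, was at 9.03 and 9.01 against 10.67 and 11.47 and differed by -2.05 (SE 0.31, adjusted p = 0.00793). Cybb, a subunit of the phagocyte NADPH oxidase, differed by -1.44 (SE 0.29, adjusted p = 0.023), a call that ended without eosinophil-labelled array 1 or 2, neutrophil-labelled array 2 or Macrophages array 1 or 2 (-1.60 to -1.28, adjusted p from 0.057 to 0.108).

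Among the early granule genes, Mpo, myeloperoxidase, was at 4.75 and 5.48 against 5.08 and 4.83, and Elane, neutrophil elastase, at 4.06 and 4.06 against 4.36 and 4.03. Their levels overlapped between the labels, with differences of 0.15 (95% interval -0.53 to 0.83) and -0.13 (-0.64 to 0.38).

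Cytokines and receptors of the IL-1 family were higher in part in the eosinophil-labelled cells. Of 28 measured proinflammatory cytokine and IL-1 family genes, 12 were called higher (42.9%, beside 3.55% of all genes) and none lower (median 1.23). Without each array in turn it was 8 to 12, lowest without eosinophil-labelled array 2, and it was 5 with the 4 arrays alone; 1 was called lower without neutrophil-labelled array 1 or 2. Il23a, the p19 subunit of IL-23, was at 11.19 and 10.22 on the eosinophil-labelled arrays against 5.84 and 5.22 on the neutrophil-labelled arrays. The T2M arrays were at 5.68, 6.51 and 5.49 and the Macrophages arrays at 4.92 and 5.07, so the level stood out from every other label. Its difference was 5.18 (SE 0.44, adjusted p = 0.00112), about 36.1-fold. Il12a, the p35 subunit of IL-12, differed by 2.78 (SE 0.31, adjusted p = 0.00278). Il1f9, which encodes IL-36 gamma, was at 11.54 and 12.28 against 8.03 and 5.69 (5.05 (SE 0.82, adjusted p = 0.00992)), and its call ended without eosinophil-labelled array 2 (4.68, adjusted p = 0.0573).

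Tnf, the tumour necrosis factor gene, was at 10.52 and 11.14 against 6.88 and 7.52, with the neutrophil-labelled arrays among or below the T2M and Macrophages arrays (7.89, 7.75 and 7.78 and 7.59 and 7.44). Its difference was 3.63 (SE 0.30, adjusted p = 0.00103). Nlrp3, the inflammasome sensor, was at 12.03 and 12.11 against 8.58 and 10.08 and differed by 2.74 (SE 0.45, adjusted p = 0.0101); the call ended without eosinophil-labelled array 2 (2.70, adjusted p = 0.0531). On the receptor side, Il18rap, a chain of the IL-18 receptor, was at 11.26 and 11.24 against 7.86 and 6.94 (3.85 (SE 0.32, adjusted p = 0.000993)). Il1rap, the accessory chain shared by IL-1, IL-33 and IL-36 receptors, was at 11.87 and 11.95 against 5.95 and 8.74, where the neutrophil-labelled arrays were far apart and both lower (4.57 (SE 0.72, adjusted p = 0.00933)).

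Some of the best known members were not called. Il1b, encoding IL-1 beta, was at 13.04 and 13.10 against 12.49 and 12.58, and its antagonist Il1rn at 12.83 and 13.09 against 11.92 and 12.21. Neither pair of arrays overlapped, yet neither difference was called (0.54, adjusted p = 0.193, and 0.89, adjusted p = 0.106). Il1rn was called with 3 other ways of choosing its probe sets (largest variance 1.69, adjusted p = 0.0124; mean of all 1.28, adjusted p = 0.0141; specific ones preferred over those marked as possibly shared 1.25, adjusted p = 0.0356). Il6, encoding interleukin 6, pointed the other way at 7.76 and 6.40 against 8.24 and 10.19 and was not called (adjusted p = 0.0913); it was called without neutrophil-labelled array 1 (-3.11, adjusted p = 0.0226).

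Interferon-response genes were the next list, and promoter sequence can be set beside them. Of 27 measured members, 10 were higher (37%, beside 3.55% of all genes) and none lower, with a median of 1.37. Without each array in turn the count was 7 to 11, lowest without eosinophil-labelled array 2, neutrophil-labelled array 1 or Macrophages array 1 or 2, with 1 lower without T2M array 2. With the 4 arrays alone it was 4. The interferon-stimulated response element, bound by the STAT and IRF factors that interferons activate, was searched as GAAA, 2 bases of any kind and GAAA again, on both strands, in windows from 250 bases before to 50 after the start site (RefSeq, assembly GRCm38.p6). It was in 13 of the 21 members that have a promoter in the table (61.9%), beside 3.99% of 27025 genes in the table. By call, it was in 5 of 10 members called higher and in 8 of 11 members not called, or 50% and 72.7%. Windows of up to 100 bases upstream of 4 members called higher, and of Cxcl10, which was not called, are shown to let the matches be compared. They are written 5′ to 3′ in the direction of the gene, from RefSeq, with the matches in capitals:
Ifit1: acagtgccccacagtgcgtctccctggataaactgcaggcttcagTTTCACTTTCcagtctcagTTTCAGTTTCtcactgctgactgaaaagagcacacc
Ifit3: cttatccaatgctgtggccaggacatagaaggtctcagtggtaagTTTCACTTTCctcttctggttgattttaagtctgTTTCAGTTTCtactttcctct
Rsad2: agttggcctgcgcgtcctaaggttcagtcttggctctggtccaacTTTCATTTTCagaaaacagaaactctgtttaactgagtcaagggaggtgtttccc
Gbp2: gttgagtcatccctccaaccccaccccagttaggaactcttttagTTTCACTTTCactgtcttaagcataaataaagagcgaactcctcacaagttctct
Cxcl10: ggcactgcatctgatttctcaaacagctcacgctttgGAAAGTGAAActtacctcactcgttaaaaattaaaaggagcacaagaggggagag
A match describes the letters only. The window shown for Ifit1 is at chr19:34640740-34640839 (plus strand), that for Ifit3 at chr19:34583328-34583427 (plus strand), that for Rsad2 at chr12:26456518-26456617 (minus strand), that for Gbp2 at chr3:142620559-142620658 (plus strand) and that for Cxcl10 at chr5:92349048-92349139 (minus strand).

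Among the members with a match, Ifit1, a cap-sensing inhibitor of viral translation, was at 8.42 and 8.66 against 5.59 and 5.24. Both eosinophil-labelled arrays were above all others of the series, and the difference was 3.13 (SE 0.33, adjusted p = 0.00216). Rsad2, the antiviral radical SAM enzyme viperin, was at 10.93 and 10.70 against 7.52 and 7.83 (3.13 (SE 0.50, adjusted p = 0.00944)); its call ended without eosinophil-labelled array 1 (3.02, adjusted p = 0.0503). Gbp2, a guanylate-binding protein, differed by 2.91 (SE 0.53, adjusted p = 0.015), and its call ended without eosinophil-labelled array 1 or 2 (2.85 to 2.98, adjusted p from 0.0592 to 0.0726). Ifit3 differed by 1.57 (SE 0.32, adjusted p = 0.0244), a call that ended without eosinophil-labelled array 1, neutrophil-labelled array 2 or Macrophages array 1 or 2 (1.27 to 1.57, adjusted p from 0.0559 to 0.117). Cxcl10, a chemokine for CXCR3-bearing lymphocytes, was at 9.62 and 10.58 against 8.83 and 8.62, without overlap but not called (adjusted p = 0.0618); it was called without eosinophil-labelled array 1 (1.85, adjusted p = 0.042).

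Members without a match in the window also rose. Isg20, an exonuclease, was at 9.88 and 10.16 against 7.14 and 7.71 (2.60 (SE 0.28, adjusted p = 0.00246)). Oasl2, of the oligoadenylate synthetase-like family, was at 9.08 and 8.65 against 6.61 and 6.32 (2.40 (SE 0.30, adjusted p = 0.00406)). Both were clear of overlap. Ddx58, the RNA sensor RIG-I, has its match after the start site and differed by 2.36 (SE 0.31, adjusted p = 0.00469). Mx1, a dynamin-like antiviral GTPase, went lower without a call, at 4.73 and 4.21 against 5.62 and 5.88 (adjusted p = 0.0588), although it was called without T2M array 2 (-1.28, adjusted p = 0.046); the Macrophages arrays were the highest for it, at 7.08 and 7.23. The element for C/EBP factors, TTGCGCAA, is a palindrome and was in none of 34 neutrophil marker and granule genes with a promoter, beside 0.207% of all genes in the table. An exact match this rare would be absent from almost any list of that length, so its absence says nothing about these genes.

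**Figure D4:**
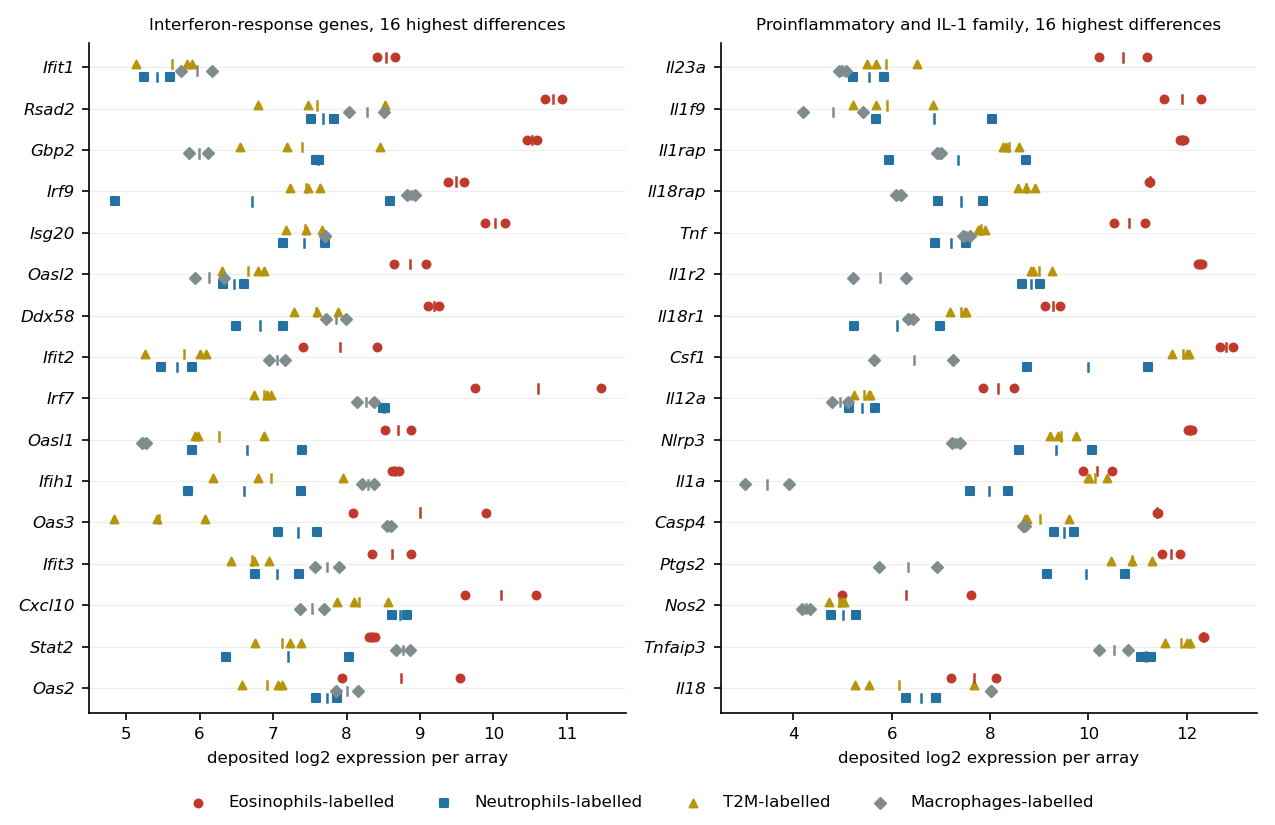
Each row is a gene, with its deposited log2 level on each array on the x axis, coloured and shaped by label, and short bars for label means; the left panel holds the 16 interferon-response members and the right panel the 16 proinflammatory and IL-1 family members with the highest differences. The eosinophil-labelled arrays lie to the right of the neutrophil-labelled arrays in nearly every row, and Tnf shows the other 3 labels at a common level near 6.88 to 7.89.

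Pattern recognition genes rose in part (33.3% of the list, beside 3.55% of all genes). Of 24 measured Toll-like receptor and pattern recognition genes, 8 were higher and none lower (median 1.29); the count was 5 to 12 without each array in turn, lowest without eosinophil-labelled array 2 and highest without T2M array 1, and 4 with the 4 arrays alone. Clec5a, a lectin receptor of myeloid cells that signals through DAP12, was at 11.34 and 11.53 against 7.25 and 7.30. The replicates of each label lay close together, and the difference was 4.16 (SE 0.27, adjusted p = 0.00075). Trem3, of the triggering receptors on myeloid cells, was at 10.35 and 10.72 against 7.62 and 7.08 (3.19 (SE 0.29, adjusted p = 0.00134)). Tlr6, which pairs with TLR2 to bind lipopeptides, differed by 2.54 (SE 0.28, adjusted p = 0.00265), and Clec4e, the lectin Mincle, by 2.29 (SE 0.32, adjusted p = 0.00586).

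Tlr2 and Tlr4, which sense bacterial products, were not called. Tlr2 was at 11.15 and 11.36 against 8.91 and 9.55 (adjusted p = 0.0901) and Tlr4, the lipopolysaccharide receptor, at 12.03 and 12.02 against 10.96 and 10.83 (adjusted p = 0.142). In both the labels did not overlap, and both were called without T2M array 1 (for Tlr2 without T2M array 1 (2.02, adjusted p = 0.00648); for Tlr4 without T2M array 1 (1.13, adjusted p = 0.0199)).

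Chemokines moved in both directions. Of 28 measured genes, 3 were higher (10.7%) and 4 lower (14.3%), beside 3.55% and 4.33% of all genes, with a median of -0.29. The upward count was 1 without T2M array 1, 2 or 3, eosinophil-labelled array 2 or neutrophil-labelled array 2, and the downward count was 2 and 1 without eosinophil-labelled arrays 1 and 2. With the 4 arrays alone they were 1 and 3. Cxcl11, a CXCR3 ligand, was at 8.49 and 9.0 against 4.08 and 4.65 (4.38 (SE 0.29, adjusted p = 0.00075)) and was the only one of the upward calls to hold without each array in turn. The 2 probe sets of Cxcl11 differed by 0.66 and 4.38. Ccl3 and Ccl4, which encode inflammatory CC chemokines, were called at 2.14 and 2.30. The Ccl3 call ended without eosinophil-labelled array 1 or 2, neutrophil-labelled array 2 or T2M array 1, 2 or 3 (1.46 to 2.39, adjusted p from 0.0559 to 0.202). The Ccl4 call ended without eosinophil-labelled array 2, neutrophil-labelled array 1 or 2, T2M array 1, 2 or 3 or Macrophages array 1 or 2 (1.40 to 2.44, adjusted p from 0.0523 to 0.16). Downward, the monocyte attractant Ccl2 was at 9.46 and 9.27 against 12.08 and 11.74 (-2.54 (SE 0.34, adjusted p = 0.00485)), and Ccl7 and Ccl9 differed by -2.40 (adjusted p = 0.0195) and -1.48 (adjusted p = 0.0134). The Ccl7 call ended without eosinophil-labelled array 1 or 2 or neutrophil-labelled array 1 or 2 (-2.56 to -2.23, adjusted p from 0.0543 to 0.0966). The Ccl9 call ended without eosinophil-labelled array 2 (-1.27, adjusted p = 0.0764). The fourth, Ccl17, a CCR4 ligand, was at 10.61 and 10.84 against 12.75 and 12.93, and its call ended without eosinophil-labelled array 1 or 2, neutrophil-labelled array 1 or 2, T2M array 3 or Macrophages array 1 or 2 (-2.23 to -2.01, adjusted p from 0.0739 to 0.167). Ccl24, an eotaxin, was at 8.45 and 9.59 against 11.24 and 12.42 and was not called (adjusted p = 0.0513); it was called without T2M array 1 or 2 (-2.81, adjusted p from 0.0236 to 0.0335).

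Receptors for these ligands were also called in both directions. Ccr2, the receptor for CCL2, was at 8.88 and 7.34 against 11.10 and 11.54, and Cx3cr1, the fractalkine receptor, at 6.73 and 7.13 against 10.73 and 9.36. The Macrophages arrays were at 11.39 and 11.60 for Ccr2 and at 10.45 and 10.70 for Cx3cr1, where neutrophil-labelled array 2 was below them. Both genes were lower on the eosinophil-labelled arrays, with differences of -3.20 (SE 0.48, adjusted p = 0.00731) and -3.11 (SE 0.41, adjusted p = 0.0048). Ccr1, a receptor for CCL3, went the other way at 11.83 and 11.78 against 9.27 and 9.97 (2.18 (SE 0.40, adjusted p = 0.0156)), and its call ended without eosinophil-labelled array 1 or 2 or neutrophil-labelled array 1 (1.83 to 2.21, adjusted p from 0.0512 to 0.0674). In the list of 22 chemokine receptor, integrin and selectin genes, 4 were higher (18.2%) and 6 lower (27.3%), beside 3.55% and 4.33% of all genes. Without eosinophil-labelled array 1 these were 0 and 3, without array 2 0 and 2, without Macrophages array 1 or 2 4 and 3, and with the 4 arrays alone 1 and 0.

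Monocyte and macrophage markers were lower in the eosinophil-labelled cells, in part. Of 27 measured, 9 were lower (33.3%, beside 4.33% of all genes) and none higher (median -1.50). Ms4a6c, a tetraspan protein of myeloid cells, was at 7.72 and 7.86 against 11.20 and 11.43, with the Macrophages arrays at 11.72 and 11.79. The replicates lay close together, and the difference was -3.52 (SE 0.27, adjusted p = 0.00075). Its 2 probe sets differed by -3.52 and -0.63. C1qc, a chain of complement C1q, was at 9.05 and 8.88 against 11.88 and 10.85 (-2.40 (SE 0.44, adjusted p = 0.016)), a call that ended without eosinophil-labelled array 1 or 2 (-2.48 to -2.32, adjusted p from 0.0592 to 0.0775), and Apoe, apolipoprotein E, differed by -2.96 (SE 0.58, adjusted p = 0.0202), a call that ended without eosinophil-labelled array 1 or neutrophil-labelled array 2 (-2.49 to -2.48, adjusted p from 0.0754 to 0.1). Members shared by many myeloid cells were not called. Csf1r, the M-CSF receptor, was at 13.03 and 12.25 against 12.92 and 12.92 and overlapped (with the mean of its probe sets it was called, -1.04, adjusted p = 0.0456), and Adgre1, which encodes F4/80, was at 9.45 and 8.59 against 9.60 and 9.72. The count was 6 without neutrophil-labelled array 2, 4 without eosinophil-labelled array 2 5 without Macrophages array 1 or 2 and 1 with the 4 arrays alone.

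Genes of alternative activation, the state that IL-4 and IL-13 bring about in macrophages, were lower in part (28% of the list, beside 4.33% of all genes). Of 25 measured, 7 were lower and none higher (median -1.78); this was 4 without neutrophil-labelled array 2, 4 without array 1, 3 without eosinophil-labelled array 2 and 2 with the 4 arrays alone. Clec10a, a galactose-type lectin, was at 6.43 and 6.69 against 9.68 and 10.36 (-3.46 (SE 0.42, adjusted p = 0.00344)). Irf4, a transcription factor of that programme, was at 7.12 and 6.91 against 9.19 and 9.53 (-2.34 (SE 0.28, adjusted p = 0.00344)). The Macrophages arrays were at 10.44 and 10.17 for Clec10a and at 8.88 and 8.78 for Irf4. Retnla, encoding the secreted protein RELM alpha, was at 12.54 and 12.49 against 13.29 and 13.23, and Chil3, the chitinase-like Ym1, at 12.14 and 12.15 against 12.63 and 12.44. The neutrophil-labelled arrays were the higher ones without overlap, but neither difference was called (adjusted p = 0.0994 and 0.603).

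Antigen presentation genes were lower in the eosinophil-labelled cells for 6 of 22 members and higher for 1 (median -1.64). These were 27.3% and 4.55%, beside 4.33% and 3.55% of all genes. H2-Ab1, an MHC class II beta chain, was at 10.40 and 10.53 against 12.66 and 13.17. Both neutrophil-labelled arrays were above both eosinophil-labelled ones, but the difference of -2.45 (SE 0.63, adjusted p = 0.0529) was not called; it was called without T2M array 1 or 2 (-2.45, adjusted p from 0.00448 to 0.0393). The other class II chains measured as sorting genes, H2-Aa and H2-Eb1, and the invariant chain Cd74 went the same way without a call, although both gates were set on low MHC class II; without T2M array 1 or 2, H2-Eb1 (adjusted p from 0.0164 to 0.0276) and Cd74 (0.0174 to 0.0313) were called. Ciita, the class II transactivator, differed by -3.17 (SE 0.68, adjusted p = 0.0274), and its call ended without eosinophil-labelled array 1 or 2, neutrophil-labelled array 2 or Macrophages array 1 or 2 (-3.23 to -2.13, adjusted p from 0.0603 to 0.105). Cd83, a maturation marker, was at 9.13 and 8.01 against 11.16 and 11.87 (-2.94 (SE 0.47, adjusted p = 0.00954)). Cd80, a costimulatory ligand, was the upward one (1.16 (SE 0.28, adjusted p = 0.0429)), and its call ended without eosinophil-labelled array 1 or 2, neutrophil-labelled array 1, T2M array 3 or Macrophages array 1 or 2 (1.0 to 1.26, adjusted p from 0.073 to 0.176). The downward count was 3 without neutrophil-labelled array 2, 2 without eosinophil-labelled array 1 or 2 3 without Macrophages array 1 or 2, 9 without T2M array 1 or neutrophil-labelled array 1 and 1 with the 4 arrays alone.

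Transcription factors of the myeloid lineages were called in both directions. Of 25 measured, 6 were higher (24%) and 4 lower (16%), beside 3.55% and 4.33% of all genes. Irf8, which drives monocytes and dendritic cells, was at 5.61 and 6.28 against 8.80 and 9.27 (-3.09 (SE 0.39, adjusted p = 0.00404)). Runx3 was at 8.49 and 8.27 against 10.65 and 10.85 (-2.36 (SE 0.30, adjusted p = 0.00431)). Gfi1, a repressor needed for neutrophil formation, was at 7.51 and 6.98 against 4.43 and 4.78 (2.64 (SE 0.39, adjusted p = 0.00701)). These were clear of overlap, and the calls held without each array in turn, although that of Runx3 ended with the probe set of largest variance (-2.40, adjusted p = 0.0529). The upward count was 1 without neutrophil-labelled array 2 and 1 without eosinophil-labelled array 2, 2 without Macrophages array 1 or 2, and 1 with the 4 arrays alone.

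Genes of general cell programmes were lower, in part, in the eosinophil-labelled cells, but none of the 4 lists in this and the next paragraph had a member called when the 4 arrays alone were fitted (0 ribosomal, 0 respiratory chain, 0 cell cycle and 0 lysosomal). Of 18 measured ribosomal protein genes, 10 were lower (55.6%, beside 4.33% of all genes) and none higher (median -1.86). Rpl6 was at 10.85 and 10.84 against 12.81 and 12.83 (-1.98 (SE 0.25, adjusted p = 0.00431)) and Rpl10a at 10.11 and 10.76 against 12.72 and 12.87 (-2.36 (SE 0.36, adjusted p = 0.00793)). The neutrophil-labelled arrays were near the Macrophages arrays for both (13.03 and 12.87 and 13.09 and 12.98). The ribosomal count was 9 under the shift to a common median and 7 to 11 without each array in turn, lowest without eosinophil-labelled array 1; it was 5 without that array and neutrophil-labelled array 2.

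Of 24 respiratory chain genes, 8 (33.3%) were lower and none higher (median -1.25). Cell cycle genes were lower for 8 of 28 (28.6%, median -0.90), and cathepsin and lysosomal genes for 6 of 21 (28.6%, median -0.71). The share over all genes was 4.33%. Mcm3, of the replicative helicase, was at 6.89 and 6.59 against 8.69 and 9.46 (-2.34 (SE 0.33, adjusted p = 0.00586); -1.30, adjusted p = 0.171 with specific probe sets preferred), and Ctsh, cathepsin H, at 9.10 and 8.80 against 10.79 and 11.49 (-2.19 (SE 0.33, adjusted p = 0.00735)). Cycs, cytochrome c, differed by -1.52 (SE 0.28, adjusted p = 0.0161), and its call ended without eosinophil-labelled array 2 (-1.38, adjusted p = 0.0871) and with specific probe sets preferred (-1.13, adjusted p = 0.228). The respiratory count was 3 without neutrophil-labelled array 2, 5 and 1 without eosinophil-labelled arrays 1 and 2, and 3 without Macrophages array 1 or 2. The cell cycle count was 5 without neutrophil-labelled array 2, 2 without eosinophil-labelled array 2, 5 without T2M array 3 and 3 without Macrophages array 1 or 2. The lysosomal count was 3 without neutrophil-labelled array 2 and 3 without eosinophil-labelled array 2.

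**Figure D5:**
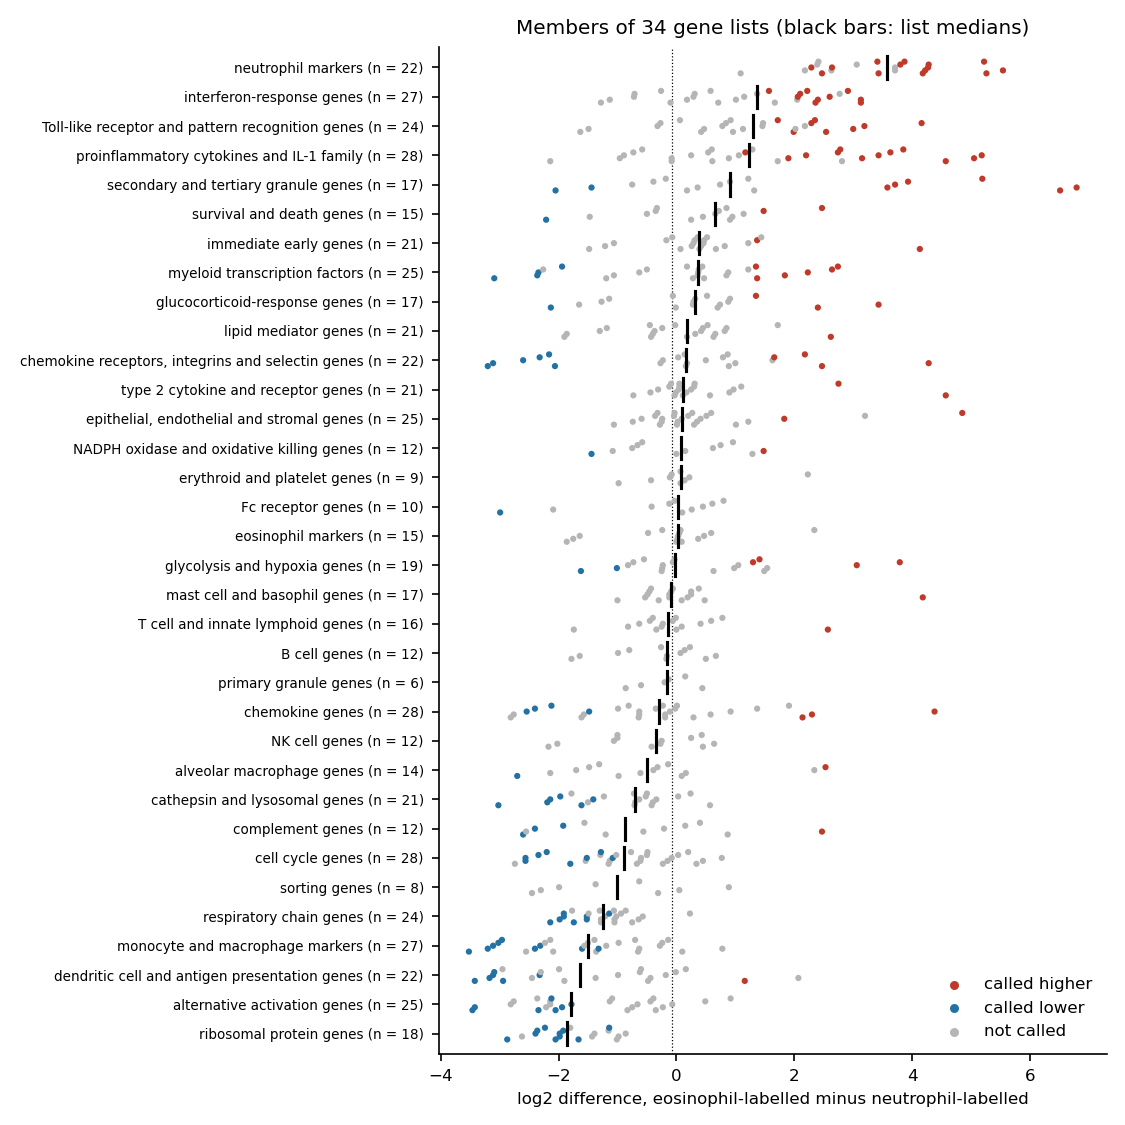
Each row is 1 of 34 gene lists, with the log2 difference of each measured member on the x axis, red for called higher, blue for called lower and grey for not called; black bars are list medians and the dotted line is the median of all genes. Neutrophil markers lie at the top with a median of 3.57, ribosomal protein genes at the bottom with -1.86, and eosinophil markers at 0.03 with no coloured point.

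Eosinophil markers were measured for 15 of 21 listed genes, and none was called. That held in 5 of the 9 fits without 1 array; 2 were called lower without eosinophil-labelled array 1, 2 without T2M array 1 and 1 without T2M array 3, and 1 was called higher without neutrophil-labelled array 1. Ccr3 was at 5.69 and 4.97 on the eosinophil-labelled arrays, 6.81 and 3.79 on the neutrophil-labelled arrays and 10.58, 9.20 and 9.82 on the T2M arrays. The eosinophil-labelled arrays lay between the neutrophil-labelled ones, and the T2M arrays were above all 4. Its difference was 0.03, with a 95% interval of -1.95 to 2.01. Prg2, major basic protein, was at 5.93 and 6.05 against 8.14 and 3.79, with T2M at 7.72, 10.69 and 11.22, and Epx, eosinophil peroxidase, at 5.01 and 5.09 against 5.75 and 4.34, with T2M at 7.01, 7.53 and 7.33. For both, the eosinophil-labelled arrays again lay between the neutrophil-labelled ones. Siglecf was at 10.47 and 9.01 against 8.55 and 6.25 and, alone of these 4, did not overlap (2.34 (SE 0.77, adjusted p = 0.111), not called, but called without neutrophil-labelled array 1 (3.49, adjusted p = 0.0249)); alveolar macrophages express it too. Alox15, a lipoxygenase of eosinophils and some macrophages, was at 10.90 and 8.91 against 11.96 and 11.57 (-1.86 (SE 0.54, adjusted p = 0.079), not called); it was called without eosinophil-labelled array 1 (-2.86, adjusted p = 0.00869) and without that array and neutrophil-labelled array 2 (-3.05, adjusted p = 0.0135).

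The genes behind the gates were not called in the fit of all arrays either. Il5ra, whose product was sorted for in 1 gate and against in the other, was at 5.77 and 4.60 against 6.19 and 4.08, and the T2M arrays, sorted as IL-5rα-, were at 8.05, 7.18 and 7.52. The labels overlapped, with a difference of 0.05 and a 95% interval of -1.47 to 1.58. Itgam, encoding CD11b, was at 10.04 and 10.77 against 9.35 and 9.69. Il4 was at 5.10 and 5.37 against 6.43 and 4.67, below the T2M arrays at 7.69, 9.80 and 8.36. None of 8 sorting genes was called, but 3 were lower without T2M array 1 and 3 without T2M array 2, namely H2-Ab1, H2-Eb1 and Cd74. Ly6g, Ly6c1 and Ly6c2, which make up the Gr-1 antigen, were not analysed here.

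Markers of further cell types were looked for, since a gate can pass them. None of 12 B cell, 12 NK cell or 9 erythroid and platelet genes was called. Without neutrophil-labelled array 2, however, 4 NK cell genes were lower, Klrc1 and Il2rb among them; 1 B cell gene was lower without eosinophil-labelled array 1 and 1 erythroid or platelet gene higher without eosinophil-labelled array 2. Il2rb, a chain of the IL-2 and IL-15 receptors, was at 5.14 and 6.64 against 9.84 and 6.28, high on neutrophil-labelled array 1 alone, and was called without neutrophil-labelled array 2 (-3.96, adjusted p = 0.0381). Of 16 T cell and innate lymphoid genes only Cd3d was called (7.69 and 9.08 against 5.95 and 5.68, 2.57 (SE 0.44, adjusted p = 0.0128)), while its partner Cd3e was at 6.13 and 5.80 against 6.16 and 4.94. Of 25 epithelial, endothelial and stromal genes Acta2, smooth muscle actin, was higher at 10.74 and 10.66 against 5.15 and 6.55 (4.85 (SE 0.51, adjusted p = 0.00218)), with T2M at 8.38, 9.47 and 9.11. That rests on a probe set whose name marks it as possibly shared with other transcripts; with a specific one preferred, Acta2 differed by 0.12, adjusted p = 0.943, so the difference and the call both depended on the probe set. Also higher was Krt18, a keratin (1.83 (SE 0.34, adjusted p = 0.0176)), whose call ended without eosinophil-labelled array 2 (1.63, adjusted p = 0.0947). The summed linear level of those 25 genes was 7193 and 7955 on the eosinophil-labelled arrays and 7564 and 3964 on the neutrophil-labelled arrays. Of 17 mast cell and basophil genes only Hdc, histidine decarboxylase, which the neutrophil list also holds, was called (4.18 (SE 0.85, adjusted p = 0.0233)), and its call ended without eosinophil-labelled array 1 or 2 (4.01 to 4.35, adjusted p from 0.0792 to 0.105). The shares called higher were 6.25% of the T cell list, 8% of the epithelial list and 5.88% of the mast cell list. Over all genes the share was 3.55%, so these counts of 1 or 2 members lie close to it. The part of such cells in the differences was not tested.

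Set side by side with the T2M arrays, the counts for each label were uneven. Against T2M, 526 genes (2.89%) were higher and 286 (1.57%) lower in the eosinophil-labelled cells, and 285 (1.57%) higher and 228 (1.25%) lower in the neutrophil-labelled cells. Against the Macrophages arrays, 1071 (5.89%) were higher and 2092 (11.5%) lower in the eosinophil-labelled cells. The neutrophil-labelled cells had 206 higher (1.13%) and 206 lower (1.13%). These comparisons share arrays with each other and with the one above. For Lcn2 the eosinophil-labelled minus T2M difference was 4.61 and the neutrophil-labelled minus T2M one -0.58; for Ms4a6c these were -0.89 and 2.63, and for Ccr2 -1.10 and 2.11.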

How the data were processed

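The deposited values are log2 expression of Affymetrix probe sets, with a column for each array. RMA, affy and limma are named by the submitters' processing notes; versions and settings are not given in the sources used here. Of 45101 probe sets, 64 controls were left out, 34945 had 1 symbol, 932 several and 9160 none in the platform annotation; 34741 matched RefSeq (GRCm38.p6), with 0 symbols changed. Among probe sets with 1 symbol, the one with the highest mean over the 9 arrays stood for its gene, which gave 18193 genes; 9010 genes had more than 1 to choose from.

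The test was two-sided limma (version 3.58.1, R 4.3.3) with eBayes on group means over all 9 arrays, so that every label adds to the estimate of the spread; p-values were adjusted by Benjamini-Hochberg across genes and the threshold was 0.05. With 5 residual degrees of freedom the median standard error (SE) was 0.337; the number of arrays limits the precision. Nothing says that a replicate number marks a shared mouse, day or batch. The script was tested on simulated data in which every label had the same spread. That test therefore does not bear on the unequal spreads of the labels here.

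The comparison and its 34 gene lists (644 genes, 566 measured) were chosen with earlier results of these data known. Named genes are from the 15 top calls upward and downward among genes without overlap, up to 4 called members in each direction and up to 3 uncalled members of each list, the sorting genes and the 5 leading genes highest in each label; predicted genes were skipped. Of 117 genes named, 33 were chosen outside that rule after their values were seen. Of 77 called members with several probe sets, 11 had at least 1 of opposite sign. Probe sets of the same sign could also differ widely in size, as for Egr3 (0.73 to 4.13), Il1rap (1.37 to 5.35) and Il13ra1 (0.27 to 2.75). Alternatives changed the probe set, the scaling, the moderation, the weights and the arrays fitted, dropped dim genes or single arrays, added a replicate block or asked for 2-fold. Figures were drawn with matplotlib 3.10.9.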

Additional observations from a re-analysis of the deposited data

How the results depend on the processing

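The 1433 calls (144 among list members) fell furthest with a 2-fold minimum, to 168 (28 list members), and with other estimates of the spread, to 215 (38) from the 4 arrays alone, 404 (44) without moderation and 526 (65) with array weights; calls that also lacked overlap were the same in number. Leaving out each array gave 710 to 1821 calls and 70 to 168 list members called, each call without overlap. These are totals, and the genes called were not all the same. Without either neutrophil-labelled array the total rose above 1433, yet many of the 1433 calls ended. Without either eosinophil-labelled array more of them ended. Totals near or above 1433 therefore do not show that the same genes were called. Other probe sets, the filter, both scalings and robust moderation gave 1316 to 1814 calls, with 1126 to 1294 of the 1433 among them. Leaving out eosinophil-labelled array 1 and neutrophil-labelled array 2 together, chosen after seeing the data, gave 1122 calls, 603 of them among the 1433, with 89 list members (144 before). With the replicate block the count was 1108 (499 higher, 609 lower); replicate 1 deviations correlated at 0.508 between the eosinophil label and T2M, at -0.115 between the eosinophil and neutrophil labels, and between -0.176 and 0.0319 in the other 4 pairs, so the numbers were not taken to pair the pools, and the crossed numbers gave 1518 calls (687 higher, 831 lower).

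Of 85 called genes in the text none changed sign and 26 held under every alternative. Of the 85 calls, 41 ended with the 4 arrays alone, 39 without moderation and 47 with a 2-fold minimum. Signs changed only for uncalled genes. Under quantile normalization Ccr3 was at -0.06 and Prg2 at -0.04, and with a common median Elane was at 0.02. Without eosinophil-labelled array 1 and neutrophil-labelled array 2, Ccr3 was at -1.84, Prg2 at -2.09, Il5ra at -1.59, Epx at -0.66, Cd3e at -0.36 and S100a9 at -0.13. Over the fits without 1 array, Ccr3 ran from -1.48 to 1.54, Prg2 from -2.15 to 2.20, Il5ra from -1.0 to 1.10, Epx from -0.70 to 0.71, Cd3e from -0.20 to 1.02, S100a9 from -0.05 to 2.23, Csf1r from -0.67 to 0.11, Elane from -0.30 to 0.03, Il4 from -1.20 to 0.57, Klrc1 from -4.17 to 0.13 and Mpo from -0.21 to 0.52. The cause of these changes was not tested.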

Other observations

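Further gene groups with a role in these cells were described in the same way. Of 19 glycolysis and hypoxia genes, 4 were higher (21.1%) and 2 lower (10.5%) in the eosinophil-labelled cells, beside 3.55% and 4.33% of all genes. Egln3, an oxygen-sensing prolyl hydroxylase, was at 10.93 and 10.62 against 7.60 and 6.37, above every other array of the series, and differed by 3.79 (SE 0.39, adjusted p = 0.00204). The glucose transporter Slc2a3 was at 10.61 and 10.82 against 7.42 and 7.89 (3.06 (SE 0.32, adjusted p = 0.00204)), with the T2M arrays at 10.82, 10.72 and 11.34, among or above the eosinophil-labelled arrays. With a specific probe set preferred over one marked as possibly shared, Slc2a3 differed by 0.92, adjusted p = 0.719, so its call and most of its difference depended on the probe set. The upward count of the glycolysis list was 2 without neutrophil-labelled array 1, 2 without eosinophil-labelled array 2 and 2 without Macrophages array 1 or 2, and 2 with the 4 arrays alone. Of 15 survival and death genes, 2 were higher and 1 lower, beside 3.55% and 4.33% of all genes; the upward count was 0 to 3 without each array in turn, and it was 0 without eosinophil-labelled array 2. The lower one was Bcl2, the anti-apoptotic founder of its family, at 6.71 and 6.97 against 9.24 and 8.85 (-2.21 (SE 0.27, adjusted p = 0.00344); -1.87, adjusted p = 0.177 with the probe set of largest variance), and the higher ones included the death receptor Fas (2.47 (SE 0.44, adjusted p = 0.0143)), whose call ended without eosinophil-labelled array 2 (2.11, adjusted p = 0.0808).

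Single genes of further lists were also called. Of 17 glucocorticoid-response genes 3 were higher and 1 lower (17.6% and 5.88%). Of 21 immediate early genes 2 were higher, and of 21 type 2 cytokine and receptor genes 2 were higher (9.52% each). Complement genes were higher for 1 and lower for 3 of 12 (8.33% and 25%). In lists this short such counts lie within a few genes of the shares over all genes, 3.55% higher and 4.33% lower. Hsd11b1, which regenerates active glucocorticoid, was at 9.07 and 9.56 against 7.03 and 6.80 (2.40 (SE 0.25, adjusted p = 0.00204)), and Mt2, a metallothionein, at 10.17 and 10.37 against 12.21 and 12.60 (-2.13 (SE 0.33, adjusted p = 0.008)). Egr3, an immediate early transcription factor, was at 10.44 and 10.16 against 5.62 and 6.72, with T2M at 9.73, 8.89 and 9.59 (4.13 (SE 0.50, adjusted p = 0.00344)). Il13ra1, a chain of the receptor for IL-4 and IL-13, was at 11.93 and 11.57 against 8.85 and 9.16 (2.75 (SE 0.44, adjusted p = 0.00992)), and its call ended without eosinophil-labelled array 1 (2.57, adjusted p = 0.0541). Cfb, complement factor B, was lower at 6.08 and 6.24 against 8.21 and 7.94 (-1.92 (SE 0.30, adjusted p = 0.0088)). Of 14 measured alveolar macrophage genes, which include Siglecf, 1 was higher and 1 lower (7.14% each), with a median of -0.50. The higher one was Car4, a carbonic anhydrase, at 12.61 and 11.84 against 9.93 and 9.46 (2.53 (SE 0.40, adjusted p = 0.00884)). Apart from Fas and Il13ra1, the calls of genes named in these paragraphs held without each array in turn.

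Mirt1, a noncoding RNA, was at 9.44 and 9.80 against 5.23 and 5.68 (4.17 (SE 0.37, adjusted p = 0.00126)); it was chosen after its values were seen. Among 10092 probe sets without exactly 1 gene symbol, 242 were higher and 142 lower (3.8%), beside 6.22% of probe sets with 1 symbol.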
